A study of Mus musculus with 6 samples.

Results

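The miR-106a-363 cluster is a run of 6 microRNA hairpins on the mouse X chromosome, and the 4 mature miRNAs particular to it, miR-106a-5p, miR-18b-5p, miR-20b-5p and miR-363-3p, are described here in immune cells isolated from mouse liver. The members were chosen by name from the 1960 mature miRNAs of the deposited count table. All 4 were found in the table, had counts in all 6 libraries and were among the 297 miRNAs kept by a filter on low counts. The table holds 3 groups of wildtype female C57BL/6J mice aged 10 weeks, each with 2 libraries that are labelled as biological replicates. Vehicle mice were healthy and were given corn oil with DMSO. In the ConA+Vehicle group, hepatitis was induced on top of that vehicle with 12.5 mg/kg of the T cell mitogen concanavalin A (ConA), injected retro-orbitally into the vein. ConA+D8THC mice received the same ConA and 20 mg/kg delta-8-tetrahydrocannabinol (D8THC), a cannabinoid, in 100 µL into the peritoneum, once 15 to 18 h ahead of the lectin and once 30 min later than it. The sources used here do not give the hour of collection or how many mice stand behind a library, and p-values measure only the spread between these libraries.

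A microRNA is cut from a hairpin as a duplex, from which usually a single strand, the guide, is loaded into Argonaute and pairs with target mRNAs through its seed, bases 2 to 8 from the 5′ end. The miR-106a-363 cluster is a paralog of miR-17-92 (the transcript Mir17hg) and of miR-106b-25 (in an intron of Mcm7). miR-17-92 is known as a driver of lymphocyte proliferation and survival, induced by Myc and E2F, whose targets include the pro-apoptotic gene Bim. The X chromosome cluster lies at Kis2, known as a common retroviral insertion site in mouse T cell lymphomas.

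In RefSeq on GRCm38.p6 (mm10, the build in the submitters' processing notes), the 6 hairpins span 875 bp of the minus strand, chrX:52741693-52742567. In the direction of transcription they are Mir106a, Mir18b, Mir20b, Mir19b-2, Mir92-2 and Mir363, with 46 to 138 bp between neighbours. The annotated Kis2 long noncoding RNA (52742563 to 52744593) ends at the start of the run and overlaps Mir106a by 5 bp, and the other 5 hairpins lie downstream of its annotated end. Mir19b-2 and Mir92-2 yield miR-19b-3p and miR-92a-3p, which hairpins of miR-17-92 also yield with the same letters, so these are not particular to the X chromosome.

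The mature sequences, from RefSeq, are shown with the seed in capitals because they decide both which targets a member can share with its relatives and which counts can be confused. All 4 members had a match there. miR-106a-5p and miR-20b-5p carry the seed of miR-17-5p, miR-20a-5p, miR-93-5p and miR-106b-5p.
miR-106a-5p: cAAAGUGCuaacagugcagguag
miR-17-5p: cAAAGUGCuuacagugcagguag
miR-20b-5p: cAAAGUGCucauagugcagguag
miR-20a-5p: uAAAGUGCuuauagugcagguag
miR-93-5p: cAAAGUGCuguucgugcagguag
miR-106b-5p: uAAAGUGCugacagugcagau

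miR-18b-5p shares its seed with miR-18a-5p alone among the miRNAs of the table that have a RefSeq sequence, 1671 of 1960.
miR-18b-5p: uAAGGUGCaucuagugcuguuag
miR-18a-5p: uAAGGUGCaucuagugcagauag

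miR-363-3p has the seed of miR-92a-3p and miR-25-3p.
miR-363-3p: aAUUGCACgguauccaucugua
miR-92a-3p: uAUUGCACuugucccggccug
miR-25-3p: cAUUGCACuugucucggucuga

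Counted from the 5′ end, miR-106a-5p differs from miR-17-5p by the single substitution U10A. miR-20b-5p differs from miR-20a-5p by U1C and U10C, and miR-18b-5p from miR-18a-5p by A18U and A20U. miR-363-3p is not such a near copy: outside the seed it shares little with miR-92a-3p, and 10 of 21 bases match. By 2 bases each, miR-20b-5p also differs from miR-106a-5p (A10C and C12U) and from miR-17-5p (U10C and C12U). The sources used here do not give how many mismatches the authors' counting allowed. The counts can therefore be mixed in part within the 3 near-identical pairs, and between the pairs of miR-20b-5p and miR-106a-5p. Those of miR-363-3p are less open to this.

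Library totals ran from 322764 to 1172389 counts, lowest in ConA+Vehicle, so 3 counts correspond to 2.63 to 9.93 CPM, a count scaled to library size, here after TMM, a correction for composition. The labelled immune cells carried their pan-haematopoietic marker, both arms of miR-142a, in every library, at 2.53% to 11.2% of counts. Markers of other cells were present as well: the 2 endothelial miRNAs took 32.7% to 34.2% of counts in Vehicle, 12.8% to 13.2% in ConA+Vehicle and 20.7% to 26.7% in ConA+D8THC, and the 6 hepatocyte miRNAs 8.35% to 13.9%, 17.1% to 19.7% and 5.18% to 7.15%. Erythroid, stellate cell and bile duct miRNAs took at most 0.180%, 1.32% and 0.509% of counts in any library. In bulk samples of this kind, fewer cells of a type and less of a miRNA per cell cannot be told apart.

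miR-20b-5p was the most abundant of the 4 members. miR-19b-3p (7996 counts) and miR-92a-3p (4841 counts) exceeded it, but the share of these that comes from the X chromosome was not measured. Over the 6 libraries miR-20b-5p had 3652 counts, against 673 of miR-106a-5p, 317 of miR-18b-5p and 263 of miR-363-3p, and it stood at rank 63 of the table by mean CPM, where miR-106a-5p was at 118, miR-18b-5p at 155 and miR-363-3p at 162. It took 67.8% ± 2.97 (SD, n = 2) of the counts of the 4 members in Vehicle, 73.9% ± 1.69 under ConA+Vehicle and 75.6% ± 2.00 in ConA+D8THC. miR-106a-5p came next in every library, and the levels of miR-18b-5p and miR-363-3p lay within each other's spread in Vehicle, where both had 20 counts in replicate 1.

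The strand that was kept differed along the cluster. The 5p arm held 99.9% of the counts of the Mir106a hairpin (673 counts against 1 of the 3p arm; Wilson 95% interval 99.2% to 99.97%), and likewise 99.7% of Mir18b and 99.8% of Mir20b. In Mir363 the 3p arm dominated and the other strand was more visible, with 263 counts of miR-363-3p and 32 of miR-363-5p, which made the 3p share 89.2% (85.1% to 92.2%). miR-363-5p was counted in all 6 libraries, from 1 to 11 counts, and did not pass the filter on low counts. The Mir20b and Mir363 hairpins are shown to place these arms, with the mature strands listed by RefSeq in capitals, both arms for Mir20b and the 3p arm for Mir363.
Mir20b: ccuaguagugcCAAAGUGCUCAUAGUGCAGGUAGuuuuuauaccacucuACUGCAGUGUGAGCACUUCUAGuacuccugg
Mir363: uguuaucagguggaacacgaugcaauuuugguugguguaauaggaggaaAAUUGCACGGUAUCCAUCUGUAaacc

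The less abundant strands of Mir19b-2 and Mir92-2 are listed under names of their own, unlike their guides. miR-92a-2-5p of the X chromosome had 0 counts in all 6 libraries, against 164 of its miR-17-92 counterpart miR-92a-1-5p, which allows it a share of up to 1.83% of the pair (3 counts). miR-19b-2-5p had 2 counts, both in ConA+Vehicle replicate 1, and miR-19b-1-5p 9. The passengers miR-106a-3p, miR-18b-3p and miR-20b-3p had 1, 1 and 7 counts. Intervals and limits of this kind cover counting error only.

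**Figure D1:**
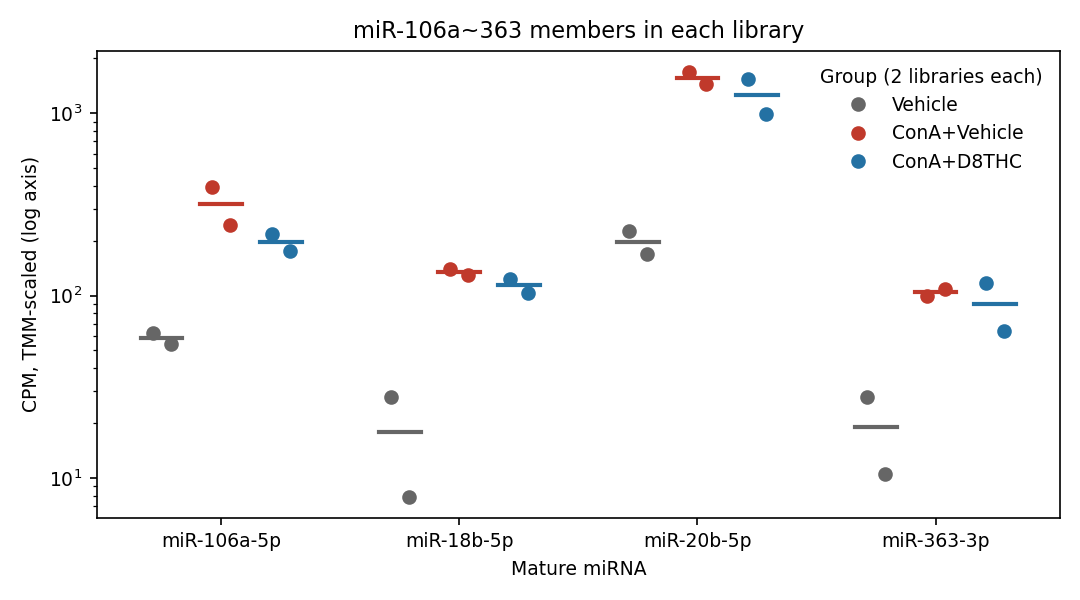
Level of each member in each library, in TMM-scaled CPM on a log axis; points are libraries (2 per group) and lines are group means. For all 4 members both Vehicle libraries lie below every library of the ConA+Vehicle and ConA+D8THC groups, and miR-20b-5p is the most abundant in each group.

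The first question was how the cluster differs under ConA hepatitis, from ConA+Vehicle and Vehicle. All 4 members rose, by 5.51-fold to 8.0-fold. In this comparison 19.9% of the 297 miRNAs tested were called higher (edgeR quasi-likelihood test, Benjamini-Hochberg adjusted p under 0.05), and the median log2 fold change was 2.75 over the members and 0.10 over all tested. The 2 groups did not overlap for any member, where 38% of the tested miRNAs were higher without overlap. Every library of ConA+Vehicle was above every library of Vehicle for each of the 4.

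miR-20b-5p, which shares its seed with the cell-cycle-linked miR-17 family, was at 225 and 169 CPM in Vehicle replicates 1 and 2 and at 1683 and 1453 CPM under ConA+Vehicle. Both hepatitis libraries were thus several times above both controls, and the replicates lay close together in each group. The difference was 7.98-fold (log2 3.0 ± 0.29, approximate SE; edgeR adjusted p = 6.14e-05), the third smallest p-value among the 297 miRNAs. miR-106a-5p, the near copy of miR-17-5p, was at 62.1 and 54.3 CPM in Vehicle and at 394 and 245 CPM under ConA+Vehicle. Its ConA+Vehicle libraries were further apart than those of miR-20b-5p, yet the lower of them was well above both controls. The difference was 5.51-fold (log2 2.46 ± 0.33, edgeR adjusted p = 0.000418).

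miR-18b-5p, the member with the miR-18 seed, was sparse in Vehicle, with 20 and 9 counts or 27.6 and 7.89 CPM. In ConA+Vehicle it was at 140 and 129 CPM, which agree closely. The difference was 8.0-fold (log2 3.0 ± 0.50, edgeR adjusted p = 0.00121), but its size turned on the 2 uneven controls: it was 16.5-fold without Vehicle replicate 1 and 4.88-fold without Vehicle replicate 2. miR-363-3p, the miR-92-type member at the end of the cluster, showed the same unevenness in the controls, with 20 and 12 counts or 27.6 and 10.5 CPM, and was at 99.7 and 109 CPM in ConA+Vehicle. It was 5.70-fold higher (log2 2.51 ± 0.50, edgeR adjusted p = 0.00318), 9.65-fold without Vehicle replicate 1 and 3.79-fold without Vehicle replicate 2. For both sparse members all libraries with ConA lay above the higher control.

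Leaving out any of the 6 libraries kept all 4 calls in this comparison, but where a group is left with 1 library, here and in every such value, that library is assumed to vary like those of the other groups. The near-identical pairs were also summed, so that reads exchanged within a pair could not alter the sum. Reads exchanged between the pairs of miR-20b-5p and miR-106a-5p could still alter their sums. The paralogs miR-20a-5p, miR-17-5p and miR-18a-5p were themselves 3.19-fold, 2.78-fold and 5.61-fold higher. The sums therefore cannot show the rise of a member by itself. The sum of miR-20b-5p and miR-20a-5p was 3.97-fold higher (edgeR adjusted p = 0.00284), that of miR-106a-5p and miR-17-5p 3.39-fold (0.000410) and that of miR-18b-5p and miR-18a-5p 6.34-fold (0.000385).

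Pan-haematopoietic and myeloid markers took larger shares in all 4 libraries with ConA than in Vehicle, while the lymphocyte shares of Vehicle and ConA+D8THC overlapped. The pan-haematopoietic pair took 2.53% to 7.31% of counts in Vehicle, 9.03% to 10.3% in ConA+Vehicle and 7.72% to 11.2% in ConA+D8THC. The 4 myeloid miRNAs took 0.348% to 0.365%, 2.76% to 2.92% and 1.48% to 2.18%, and the 4 lymphocyte miRNAs 0.566% to 0.814%, 0.874% to 1.12% and 0.642% to 1.05%; no marker of these lists was at 0 in any library. Per 1000 counts of miR-142a, the members together had 4.50 and 9.31 counts in Vehicle, 23.7 and 20.1 under ConA+Vehicle and 18.9 and 17.6 in ConA+D8THC. Against miR-142a, both controls were below the other 4 libraries. Per 1000 counts of the myeloid miRNAs the members had 94.5 and 64.6 counts in Vehicle, 88.4 and 62.1 under ConA+Vehicle and 97.0 and 91.8 under ConA+D8THC. Against the myeloid markers, Vehicle overlapped with both groups that received ConA. Per 1000 counts of the lymphocyte miRNAs the members had 40.4 and 41.6 counts in the controls, 218 and 207 with ConA+Vehicle and 201 and 212 with ConA+D8THC, without overlap between Vehicle and the others. All 4 members were also called with miR-126a and miR-122, the leading endothelial and hepatocyte miRNAs, left out of the table. That setting bears on the scaling of the libraries and cannot show the part of the cell mix. The part of the blood cell markers in the result was not tested.

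ConA+D8THC was compared with Vehicle, which shares the control libraries with the comparison above. Again all 4 members rose, where 18.5% of the 297 miRNAs were called higher and 37.7% were higher without overlap. The median log2 fold change was 2.50 over the members and -0.06 over all tested. miR-20b-5p was at 1534 and 990 CPM in ConA+D8THC replicates 1 and 2, 6.43-fold above Vehicle (log2 2.68 ± 0.28, edgeR adjusted p = 0.000164), with the smallest p-value of all 297 miRNAs. Its ConA+D8THC libraries differed more from each other than those of the other groups, and both were above the controls.

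miR-18b-5p was at 124 and 104 CPM, 6.78-fold above Vehicle (edgeR adjusted p = 0.00267; 14.1-fold without Vehicle replicate 1 and 4.21-fold without Vehicle replicate 2). miR-363-3p was at 117 and 64.0 CPM, 4.97-fold above Vehicle (edgeR adjusted p = 0.00570; 8.5-fold without Vehicle replicate 1, and log2 1.75 without Vehicle replicate 2 against 2.31 with all libraries). Both sparse members thus stayed above the higher of their controls in each D8THC library. miR-106a-5p was at 217 and 176 CPM and had the smallest of the 4 differences, 3.39-fold (log2 1.76 ± 0.33, edgeR adjusted p = 0.00305). The sum of miR-20b-5p and its near copy miR-20a-5p was 2.94-fold higher than in Vehicle (edgeR adjusted p = 0.0120), and miR-20a-5p alone was 2.27-fold higher.

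What the cannabinoid changed in the cluster was asked from the 2 groups that received ConA. No member was called: 0 of 4 at an adjusted p under 0.05 by edgeR, DESeq2 or limma-voom, in a comparison where edgeR called 0% of the 297 miRNAs higher and 3.7% lower. An unadjusted p under 0.05 with a lower level was reached by 1 of the 4, against 12.5% of the tested miRNAs. All 4 estimates were below 0, with a median log2 fold change of -0.28 over the members and -0.04 over all tested.

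That member was miR-106a-5p, whose ConA+D8THC libraries (217 and 176 CPM) were both below its ConA+Vehicle libraries (394 and 245 CPM). Its log2 fold change was -0.70 with a 95% interval of -1.39 to -0.02 (unadjusted p = 0.0460, adjusted p = 0.255 by edgeR). Without ConA+Vehicle replicate 1, the highest of the 6 libraries for this miRNA, the log2 fold change was -0.32 (edgeR adjusted p = 0.938). The level of miR-18b-5p was also lower without overlap, 124 and 104 against 140 and 129 CPM (log2 -0.24, 95% interval -1.20 to 0.73, edgeR adjusted p = 0.886). Of all tested miRNAs 25.3% were lower without overlap in this comparison, so 2 of 4 is read against that share.

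The libraries of miR-20b-5p and miR-363-3p overlapped between the ConA groups. The log2 fold change of miR-20b-5p was -0.31 with a 95% interval of -0.89 to 0.27, which spans 0.538 to 1.20 times the ConA+Vehicle level, and that of miR-363-3p was -0.20 with an interval of -1.17 to 0.78, or 0.443 to 1.72 times. Both intervals hold decreases and increases, and a missing call does not show that the levels were alike. For miR-363-3p the sign rested on ConA+D8THC replicate 2, without which the log2 fold change was 0.19.

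**Figure D2:**
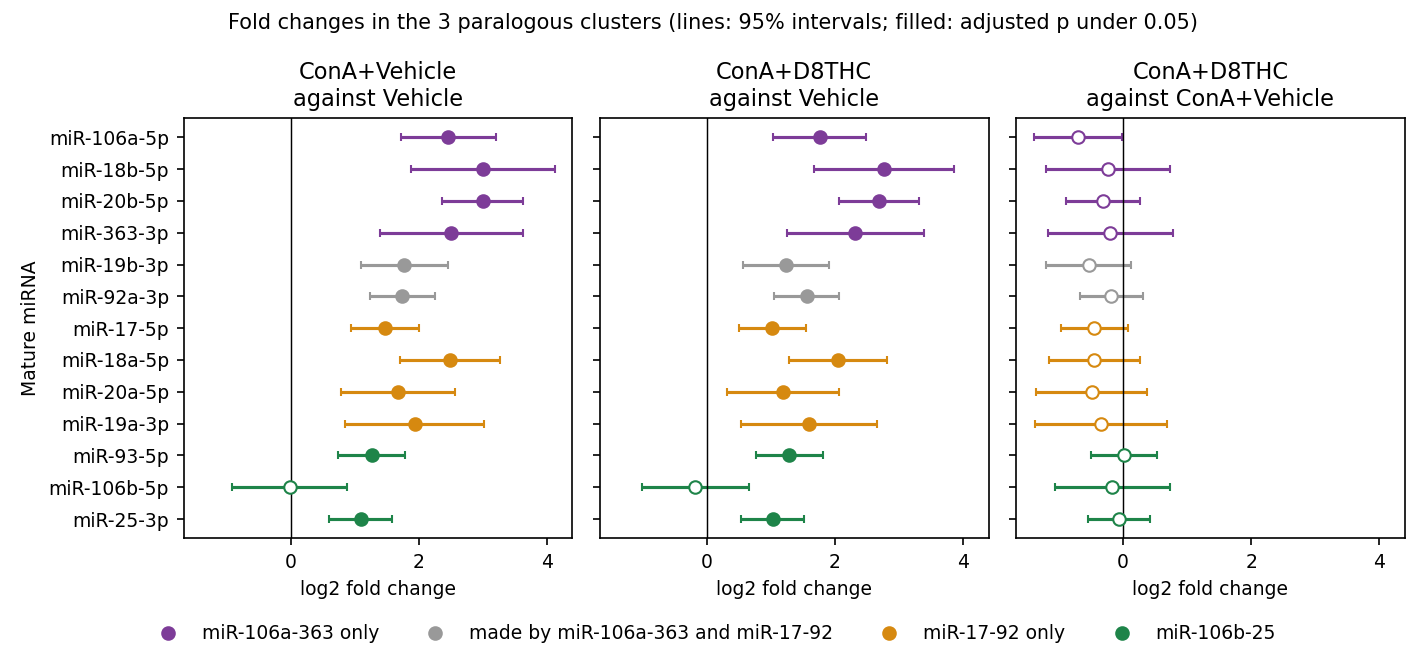
Log2 fold changes of the 4 members, of the 2 miRNAs made by both the X chromosome and the miR-17-92 clusters, and of their paralogs in miR-17-92 and miR-106b-25, in the 3 comparisons; lines are 95% intervals of the edgeR fit and filled points have an adjusted p under 0.05. The members lie between 1.76 and 3.0 in both comparisons with Vehicle and between -0.70 and -0.20 in the comparison of the ConA groups.

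The paralogous clusters were compared to show where the X chromosome members differ. Of the 10 miRNAs particular to miR-17-92, 6 passed the filter, and all 6 rose in ConA+Vehicle against Vehicle, by a median log2 of 1.68 and at most 2.49, the value of miR-18a-5p. All 6 miRNAs of miR-106b-25 passed it; 4 rose, 0 fell, and miR-106b-5p (log2 -0.02) and miR-93-3p (-0.03) were not called, with a median of 1.18. The sparse miR-25-5p of that cluster, at 3.04, matched the largest log2 fold changes of the X chromosome members and is named here after its value was seen. Without ConA+Vehicle replicate 1, which leaves a single library in that group, fewer miRNAs were called in both clusters and over all tested miRNAs. In ConA+D8THC against Vehicle, the counts called higher were 6 of 6 and 3 of 6, and in ConA+D8THC against ConA+Vehicle 0 of 6 and 0 of 6.

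Each member had a larger log2 fold change than the paralog set beside it when ConA+Vehicle was compared with Vehicle. The values were 2.46 for miR-106a-5p against 1.47 for miR-17-5p, and 3.0 for miR-20b-5p against 1.67 for miR-20a-5p. They were 3.0 for miR-18b-5p against 2.49 for miR-18a-5p, and 2.51 for miR-363-3p against 1.74 for miR-92a-3p. The same order held in ConA+D8THC against Vehicle, where the paralogs were at 1.03, 1.19, 2.04 and 1.56 in that order. Hairpins of both clusters make miR-92a-3p, so its pair with miR-363-3p does not set the X chromosome cluster against miR-17-92 alone. The difference between a member and its paralog was not tested, and both comparisons share the Vehicle libraries. Within a library, the share of a pair does not depend on the scaling between libraries. The near-identical pairs, and miR-363-3p within its seed family, were therefore also compared as shares of counts. Reads exchanged within a pair, or between the pairs of miR-20b-5p and miR-106a-5p, could alter the shares of pairs. With 2 libraries a group an exact two-sided permutation test cannot give a p below 0.33, and the shares are given without a test.

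miR-20b-5p made up 14.0% and 19.8% of its counts together with miR-20a-5p in Vehicle replicates 1 and 2, 29.1% and 36.9% under ConA+Vehicle, and 35.1% and 34.8% in ConA+D8THC. The counting intervals of the 2 Vehicle libraries (12.1% to 16.1% and 17.4% to 22.4%, Wilson 95%) lay below those of the other 4, of which the lowest began at 27.3%. miR-106a-5p made up 22.3% and 22.1% of its pair with miR-17-5p in Vehicle, 38.8% and 32.5% under ConA+Vehicle, and 34.8% and 29.4% in ConA+D8THC. Here, too, the groups with ConA were above Vehicle in every library, but some counting intervals met: the highest of Vehicle ended at 28.5% and the lowest of ConA+D8THC began at 25.2%.

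For miR-18b-5p the shares did not separate. Of the pair with miR-18a-5p it made up 39.2% (20 of 51 counts) and 21.4% (9 of 42) in Vehicle, 38.6% and 42.4% under ConA+Vehicle, and 46.2% and 41.2% in ConA+D8THC, so that Vehicle replicate 1 lay inside the range of the others. At these counts a shift within this pair was not detectable. miR-363-3p made up 0.792% and 0.390% of the counts of its seed family in Vehicle and 1.34% and 1.55% under ConA+Vehicle. In ConA+D8THC it made up 1.51% and 1.09%, so these shares did not overlap between Vehicle and the other groups. Some counting intervals met: the highest of Vehicle ended at 1.22% and the lowest of ConA+D8THC began at 0.817%. The ratio of its counts to those of miR-92a-3p alone was 0.0505 and 0.0210 in Vehicle and 0.0552 and 0.0643 under ConA+Vehicle. In ConA+D8THC it was 0.0660 and 0.0486, so by this ratio Vehicle and ConA+D8THC overlapped.

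**Figure D3:**
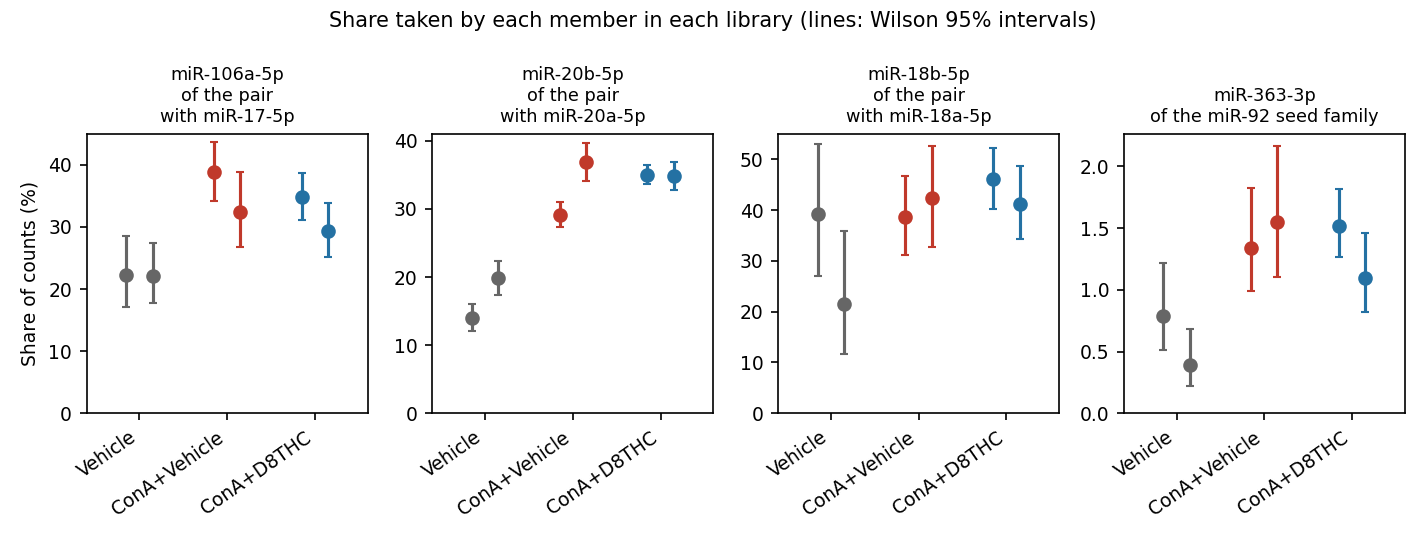
Share of counts taken by each member within its near-identical pair, or within the miR-92 seed family for miR-363-3p, in each library, in percent; points are libraries and lines are Wilson 95% intervals for counting error. The points of Vehicle lie below those of the other groups for miR-106a-5p, miR-20b-5p and miR-363-3p. Some intervals meet for miR-106a-5p and miR-363-3p. The 2 Vehicle libraries of miR-18b-5p are at 39.2% and 21.4%.

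Over the 3 paralogous clusters together, with miR-19b-3p and miR-92a-3p included, the 4 members held 3.12% ± 0.03 (SD, n = 2) of the counts in Vehicle, 8.20% ± 0.12 under ConA+Vehicle and 7.24% ± 0.50 in ConA+D8THC. Of all counts in a library they held 0.0282% ± 0.0066, 0.212% ± 0.044 and 0.174% ± 0.053. Both Vehicle libraries were below the other 4 in both shares.

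The miR-17 seed family sets the members' increase in proportion, since its miRNAs can pair with the same seed matches. Its 7 listed miRNAs, of which miR-6383 had no count, took 0.489% ± 0.127 of all counts in Vehicle, 1.42% ± 0.29 under ConA+Vehicle and 1.34% ± 0.34 in ConA+D8THC. miR-106a-5p and miR-20b-5p together made up 5.10% ± 0.48 of the family in Vehicle, 13.2% ± 0.31 under ConA+Vehicle and 11.3% ± 0.71 in ConA+D8THC. miR-93-5p of the Mcm7 cluster stayed the most abundant in each library, at 69.8% ± 3.30, 59.6% ± 5.74 and 66.9% ± 1.32. miR-106b-5p, despite its similar name, moved otherwise: it was at 61.4 ± 18.6 CPM in Vehicle, 59.3 ± 18.4 under ConA+Vehicle and 53.1 ± 16.8 in ConA+D8THC, and its share of the family was 1.21%, 0.411% and 0.410%.

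**Figure D4:**
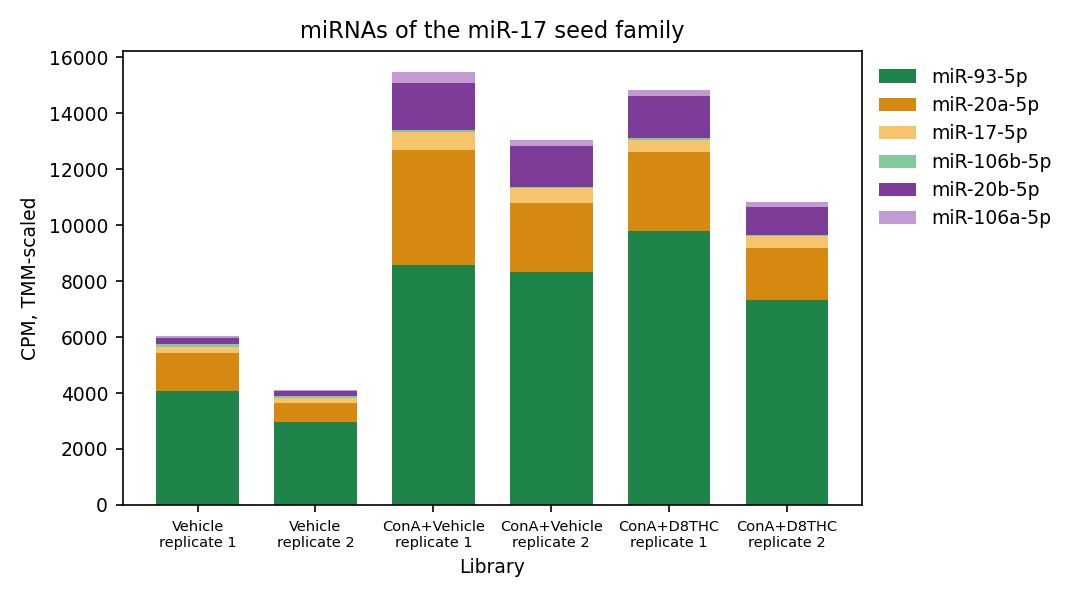
Summed level of the miRNAs with the miR-17 seed in each library, in TMM-scaled CPM; each bar is a library and its segments are the 6 miRNAs with counts. The sums are 6024 and 4110 CPM in Vehicle, 15463 and 13063 under ConA+Vehicle and 14850 and 10821 under ConA+D8THC, with miR-93-5p the largest segment in every bar.

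In the miR-92 seed family 3 of the 4 tested miRNAs rose in each comparison with Vehicle; miR-32-5p was not called (log2 0.67 in ConA+Vehicle and 0.57 in ConA+D8THC). miR-363-3p had the largest log2 fold change of the 4 in both. miR-25-3p, the most abundant of them, was at 2450 ± 429 CPM in Vehicle and 5229 ± 201 under ConA+Vehicle. miR-92b-3p had 3 counts in all and miR-367-3p none.

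The miRNAs whose pattern over the 6 libraries was most like that of each member were taken by the smallest root mean square difference of centred log2 CPM, over the 293 tested miRNAs that are no members. For miR-20b-5p these were miR-147-3p (0.09), miR-155-5p (0.16) and miR-147-5p (0.17), where the median over all 293 was 1.38; miR-147 is known as a macrophage miRNA of Toll-like receptor stimulation and miR-155 as one of activated lymphocytes and macrophages. For miR-106a-5p they were miR-18a-5p (0.21), miR-155-5p (0.31) and miR-19b-3p (0.31), of which miR-18a-5p comes from miR-17-92 and miR-19b-3p from both clusters. For miR-18b-5p they were the hypoxia-responsive miR-210-3p (0.25), miR-147-5p (0.32) and miR-155-5p (0.34), and for miR-363-3p miR-19a-3p (0.28), miR-155-5p (0.29) and miR-210-3p (0.29). Among themselves the members differed by 0.32 (miR-18b-5p and miR-363-3p) to 0.58 (miR-106a-5p and miR-18b-5p), so each had miRNAs outside the cluster at least as close as its nearest cluster mate. These distances are a description over libraries of 3 groups and carry no test.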

How the data were processed

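Small RNA was sequenced from liver immune cells in 6 libraries, 2 in each of 3 groups, and libraries were grouped by their labels. The authors deposited raw counts per mature miRNA, made with the GeneGlobe portal per the series' design text, with mm10 as the build per the submitters' processing notes. The sources used here do not give the aligner, the mismatch allowance, how a read with several matching miRNAs was handled, or whether reads or molecular identifiers were counted.

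Counts were tested with edgeR 4.0.16 (R 4.3.3): filterByExpr kept 297 of 1960 miRNAs, TMM factors scaled the libraries, and a robust quasi-likelihood model with a mean for each group was fitted to all 6 libraries (3 residual degrees of freedom). The spread of each miRNA was moderated with that of the other tested miRNAs, so the p-values rest on this sharing too. Benjamini-Hochberg adjustment ran over the 297 miRNAs, and an adjusted p under 0.05 was called. An SE is the log2 fold change divided by the square root of its F value. Total counts of 322764 to 1172389 limit the precision of sparse miRNAs. Shares of counts carry Wilson 95% intervals. The code was tested on simulated data. Alternatives were other scalings and filters, DESeq2 1.42.0, limma-voom (limma 3.58.1), a replicate block, only the groups compared, summed paralogs, dominant miRNAs left out, each library left out, and a threshold of 0.1. Figures were drawn with matplotlib 3.10.9.

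Named miRNAs were the members, the other strands of their hairpins, the miRNAs of the 2 paralogous clusters and of the shared seeds, the 3 most alike in pattern, and cell markers. Members and lists were chosen with earlier results of these data known.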

Additional observations from a re-analysis of the deposited data

How the results depend on the processing

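Under all 18 alternatives, 4 members were called in each comparison with Vehicle and 0 between the groups with ConA. The threshold of 0.1 reused the main fit, so it could not lose a call against Vehicle. In the summed setting, all members but miR-363-3p stood for sums with their paralogs. With a replicate block the log2 fold changes in ConA+Vehicle against Vehicle were 2.42 for miR-106a-5p, 3.04 for miR-18b-5p, 3.0 for miR-20b-5p and 2.56 for miR-363-3p, and the block changed no member's call. The labels do not say what a shared replicate number marks, so the main fit took no pairs. Same-numbered libraries deviated together weakly (r = 0.20, 0.24 and 0.07 across 297 miRNAs, which are not independent replicates). These values cannot decide whether the libraries are paired. The single reversal was miR-363-3p in ConA+D8THC against ConA+Vehicle without ConA+D8THC replicate 2 (log2 0.19, edgeR adjusted p = 0.992); leaving out single libraries gave -0.69 to 0.19. A group left with 1 library is assumed there to vary like the others. Over all tested miRNAs the number called was 109 (67 without ConA+Vehicle replicate 1 to 132 with the replicate block), 11 (5 with a stricter filter to 44 with the block) and 97 (63 without ConA+D8THC replicate 1 to 133 with the block), in the order ConA effect, D8THC effect under ConA, both agents. Taken of all 3 clusters rather than of the pair or seed family, the shares in Vehicle, ConA+Vehicle and ConA+D8THC were 0.635%, 1.22% and 0.869% for miR-106a-5p, 2.12%, 6.06% and 5.48% for miR-20b-5p, 0.176%, 0.520% and 0.504% for miR-18b-5p, and 0.193%, 0.407% and 0.388% for miR-363-3p, by the wider denominator alone. Depth limits miR-18b-5p and miR-363-3p most, with 9 to 20 counts in the Vehicle libraries.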
